A study of Mus musculus with 6 samples.

Results

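Sensory neuron identity transcription factors are the 10 genes Isl1, Pou4f1, Tlx3, Drgx, Pou4f2, Pou4f3, Runx1, Prdm12, Maf and Mafa. They were taken as a named set, and a probe was counted for a gene when the transcript it was designed on belongs to that gene in RefSeq. This gave 13 of the non-control probes, for 9 of the 10 genes, on an array that carries probes for 17157 named genes. Pou4f1, Pou4f2, Runx1 and Maf had 2 probes each, Drgx is listed under its older symbol Prrxl1, and Prdm12, a factor of the nociceptor lineage, matched no probe and was not analysed here. The factors were compared between dorsal root ganglia of 3 dt27J mice and 3 wild-type (WT) littermate controls at postnatal day 4, all of the C57BL/6 background and from 2 litters. In dt27J mice Dst, which encodes the cytoskeletal linker dystonin, is mutated, and the series title calls this age pre-phenotype. Total RNA of each animal was hybridised to 1 single-colour array, and the sample labels carry 2 dates. The first date holds dt27J 1, dt27J 2, WT 1 and WT 2, and the second date holds dt27J 3 and WT 3. All values are log2 signals relative to the 75th percentile of the array, unless a difference is named.

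Neurons of the dorsal root ganglion acquire their identity in steps. Isl1, a LIM homeodomain protein, and Pou4f1, a POU homeodomain protein also called Brn3a, are switched on in nearly all newborn sensory neurons, where they end the neurogenic programme and open the sensory one. Tlx3 and Drgx, homeodomain proteins, are expressed broadly in the embryonic ganglion and are needed for the nociceptive circuit. Later factors divide the neurons into classes: Runx1 and Prdm12 belong to nociceptors, Maf and Mafa to low-threshold mechanoreceptors, and Pou4f2 and Pou4f3, paralogues of Pou4f1, to part of the sensory neurons. The 4 genes Isl1, Pou4f1, Tlx3 and Drgx were treated as general factors and the other 6 as subtype factors. Several of the factors act outside the ganglion too, since Tlx3, Drgx, Pou4f1 and Isl1 are known in the dorsal horn of the spinal cord, Isl1 in sympathetic neurons, and Runx1 and Maf in blood cells and macrophages.

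The start regions of the 4 general factors are shown because these genes stood lower together in dt27J ganglia. Each is the 250 bases before the transcription start given by RefSeq on build GRCm38.p6, written 5′ to 3′ on the strand of the gene. Capitals mark matches, on either strand, to 4 short motifs: the homeodomain core TAATTA, the E-box CANNTG of basic helix-loop-helix factors, the Runx core TGTGGT and the Maf half-site TGCTGA. No match overlapped another. The windows lie at chr11:33203589-33203838 on the minus strand for Tlx3, chr14:104468000-104468249 on the minus strand for Pou4f1, chr13:116309689-116309938 on the minus strand for Isl1 and chr14:32599677-32599926 on the plus strand for Drgx.
Tlx3: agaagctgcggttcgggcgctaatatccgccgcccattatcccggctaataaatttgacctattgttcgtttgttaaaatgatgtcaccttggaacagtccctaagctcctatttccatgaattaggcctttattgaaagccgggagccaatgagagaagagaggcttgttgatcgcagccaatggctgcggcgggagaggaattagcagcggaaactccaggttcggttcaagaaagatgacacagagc
Pou4f1: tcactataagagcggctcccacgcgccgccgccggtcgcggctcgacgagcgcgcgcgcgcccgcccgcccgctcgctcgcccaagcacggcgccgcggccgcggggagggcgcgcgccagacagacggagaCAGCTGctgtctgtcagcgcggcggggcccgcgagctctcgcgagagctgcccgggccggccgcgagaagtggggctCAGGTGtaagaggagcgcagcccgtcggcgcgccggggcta
Isl1: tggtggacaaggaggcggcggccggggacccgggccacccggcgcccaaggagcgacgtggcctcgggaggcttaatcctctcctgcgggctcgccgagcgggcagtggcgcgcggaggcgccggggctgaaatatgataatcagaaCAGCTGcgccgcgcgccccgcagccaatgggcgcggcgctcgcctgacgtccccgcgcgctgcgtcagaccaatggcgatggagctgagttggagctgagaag
Drgx: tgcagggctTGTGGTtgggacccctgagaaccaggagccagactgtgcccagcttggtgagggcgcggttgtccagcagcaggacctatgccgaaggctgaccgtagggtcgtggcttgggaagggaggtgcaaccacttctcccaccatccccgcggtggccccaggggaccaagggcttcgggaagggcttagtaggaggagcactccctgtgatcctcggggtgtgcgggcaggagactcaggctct
Pou4f1 had 2 E-boxes in this window, Isl1 had 1 and Drgx had 1 Runx core, while none of the 4 motifs was found for Tlx3. Among all 32851 windows of this length an E-box stood in 66.2%, a Runx core in 14.0%, a Maf half-site in 16.1% and TAATTA in 4.84%. The Tlx3 window had a GC content of 48.8% and the Pou4f1 window one of 78.0%, against a median of 52.4% over all windows. A match is a description of the letters and not a binding site.

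The arrays differed in the tissue they carried, which matters for factors that more than 1 neuron type uses. Markers of spinal cord glia (10 of 12 genes tested) stood high on WT 1 and WT 2 alone. Relative to their WT mean they averaged -1.86, -2.17 and -1.63 on dt27J 1, 2 and 3 and 0.92, 0.76 and -1.67 on WT 1, 2 and 3 (log2), and their summed signal ran from 5.74 to 7.91 in dt27J and from 6.17 to 33.9 in WT ganglia, in multiples of the 75th percentile. Markers of sympathetic neurons (9 of 10 tested) divided the arrays in another way. They averaged 3.16 and 3.80 on dt27J 1 and 2, -1.37 on dt27J 3, -1.54 and -1.62 on WT 1 and 2, and 3.16 on WT 3, with a summed signal of 1.03 to 35.9 in dt27J and 0.93 to 18.9 in WT ganglia. The noradrenaline transporter gene Slc6a2, a marker of these neurons, stood at 3.28, 3.91 and -5.14 in the dt27J arrays and at -6.01, -6.49 and 2.27 in the WT arrays. Slc6a2 lies outside the naming rule given with the processing and was chosen after its values were seen. All 15 tested markers of sensory neurons, of 16 listed, were well above background on every array, and they averaged -0.95, -0.77 and -0.16 on dt27J 1, 2 and 3 and 0.01, -0.03 and 0.01 on WT 1, 2 and 3. Their summed signal was 671 to 844 in dt27J and 923 to 1033 in WT ganglia. In whole ganglia, fewer sensory neurons and less RNA of a gene per neuron cannot be told apart. The part of these tissues in the results below was not tested, and the values that bear on a gene are given beside it. Dst, the gene mutated in dt27J, was lower in the dt27J ganglia on all 3 of its probes, by 2.68, 2.42 and 2.46 on the log2 scale (adjusted p = 0.0341, 0.0376 and 0.0454, limma).

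**Figure D1:**
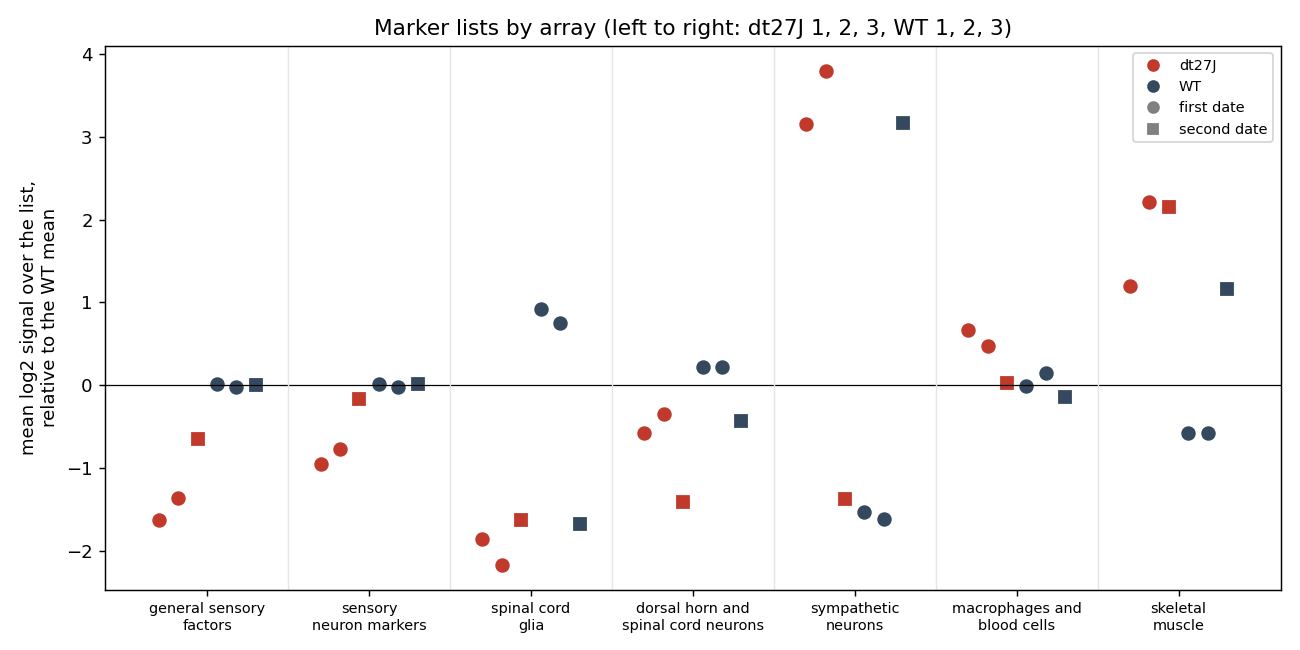
Mean log2 signal over each marker list on each array, relative to the mean of the 3 WT arrays (circles, first date; squares, second date; dt27J arrays left of the WT arrays in each column). Spinal cord glia markers stand high on WT 1 and WT 2, sympathetic markers on dt27J 1, dt27J 2 and WT 3, and the general sensory factors are lower on each of the 3 dt27J arrays, least so on dt27J 3.

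Over all genes, 838 of the 26248 probes that were tested were called at an adjusted p under 0.05 (3.19%), of which 344 were higher in dt27J and 494 lower. After quantile normalization the split was 537 higher and 440 lower, and after median scaling 457 higher and 382 lower. Of the 13 probes of the identity factors, 11 were tested, for 8 genes, since the others were well above background on too few arrays. Among the tested 11, Tlx3 and 1 of 2 Pou4f1 probes fell and 1 of 2 Maf probes rose, which is 2 lower and 1 higher against 1.88% and 1.31% of all tested probes. The groups did not overlap for 8 of the 11 probes, 6 lower and 2 higher in dt27J, while 28.8% of all tested probes showed no overlap, 16.0% lower and 12.8% higher. All 11 had an unadjusted p under 0.05, as did 27.7% of all tested probes, and 8 of the 11 had a negative fold change, against 53.6% of all. The brighter Pou4f2 probe, 1 of the lower ones, entered through its WT signal alone. Of the 10 probes well above background on every array, 7 were negative and 3 positive, and 7 showed no overlap, 5 lower and 2 higher.

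Tlx3 had the largest difference of the 11 tested member probes. Its signal was -3.20, -2.63 and -0.94 in dt27J 1, 2 and 3, against 0.05, 0.38 and 0.00 in WT 1, 2 and 3, so the genotypes did not overlap, and dt27J 3 was the nearest to WT. The fitted log2 difference was -2.40 (adjusted p = 0.0491, limma; SE 0.46, 3 mice of each genotype), which is 5.28-fold lower (95% interval 2.47 to 11.3) and leaves 18.9% of the WT signal. After normexp background correction the difference was -1.62 (adjusted p = 0.0571). Relative to their WT means, the spinal cord lists averaged 0.92, 0.76 and -1.67 (glia) and 0.21, 0.22 and -0.43 (neurons) on WT 1, 2 and 3. Members of the neuron list differed among themselves. The difference, dt27J minus WT, was -1.14 in the first date and -1.63 in the second for Gbx1, and -3.63 and 0.17 for Gad1. It was -0.99 and -1.25 for Pax2, and 0.106 and 0.115 for Zic1, by the brightest probe of each gene. The part of spinal cord tissue in the Tlx3 values was not tested. The fall of Tlx3 was larger than that of the sensory neuron markers on each dt27J array. With the marker mean of the same array taken off, Tlx3 stood at -2.39, -2.004 and -0.92 on dt27J 1, 2 and 3 and between -0.16 and 0.26 on the WT arrays.

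Pou4f1 was lower on both of its probes, and the dimmer one passed. The dimmer probe read -1.38, -1.02 and -1.30 in dt27J 1, 2 and 3, against 0.00, -0.21 and 0.35 in WT 1, 2 and 3. It fell by 1.28 (SE 0.23, adjusted p = 0.0472, limma), a 2.43-fold difference (95% interval 1.67 to 3.52), and after normexp it stood at -0.68 (adjusted p = 0.0804). The brighter probe read -0.50, -0.13 and -0.01 in dt27J ganglia, against 0.38, 0.53 and 0.69 in WT ganglia, with a difference of -0.75 (SE 0.20, adjusted p = 0.0761). The groups did not overlap on either probe, and the 3 dt27J arrays lay close together. After removal of the sensory marker mean the brighter probe stood between -0.38 and 0.10 and the dimmer one between -1.19 and -0.30 on the dt27J arrays, and on the WT arrays the ranges were -0.16 to 0.14 and -0.23 to 0.29. The groups overlapped for the brighter probe on that measure.

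Isl1 differed least of the general factors. Its probe is spotted 10 times on each array and read 2.56, 2.76 and 2.51 in dt27J 1, 2 and 3, against 3.40, 2.84 and 3.34 in WT 1, 2 and 3. WT 2 lay only just above dt27J 2. The difference of -0.58 (SE 0.23, 66.8% of WT) did not pass (adjusted p = 0.168). Sympathetic markers were high on dt27J 1, dt27J 2 and WT 3, and their part in the Isl1 values was not tested. Relative to the sensory marker mean, Isl1 stood at 0.33, 0.34 and -0.52 on dt27J 1, 2 and 3 and between -0.33 and 0.20 on the WT arrays, so the groups overlapped on that measure.

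Drgx, which depends on Tlx3 in the mouse dorsal horn, was dim, at -4.72, -4.77 and -3.52 in dt27J 1, 2 and 3, against -3.09, -3.17 and -3.36 in WT 1, 2 and 3. The 2 dt27J arrays of the first date stood well below every WT array and dt27J 3 just below WT 3. The difference was -1.13 (SE 0.32, 45.6% of WT, adjusted p = 0.0847). Relative to the sensory marker mean, Drgx stood at -0.56, -0.80 and -0.147 on dt27J 1, 2 and 3. On WT 1, 2 and 3 it stood at 0.10, 0.07 and -0.165, so the groups overlapped on that measure.

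**Figure D2:**
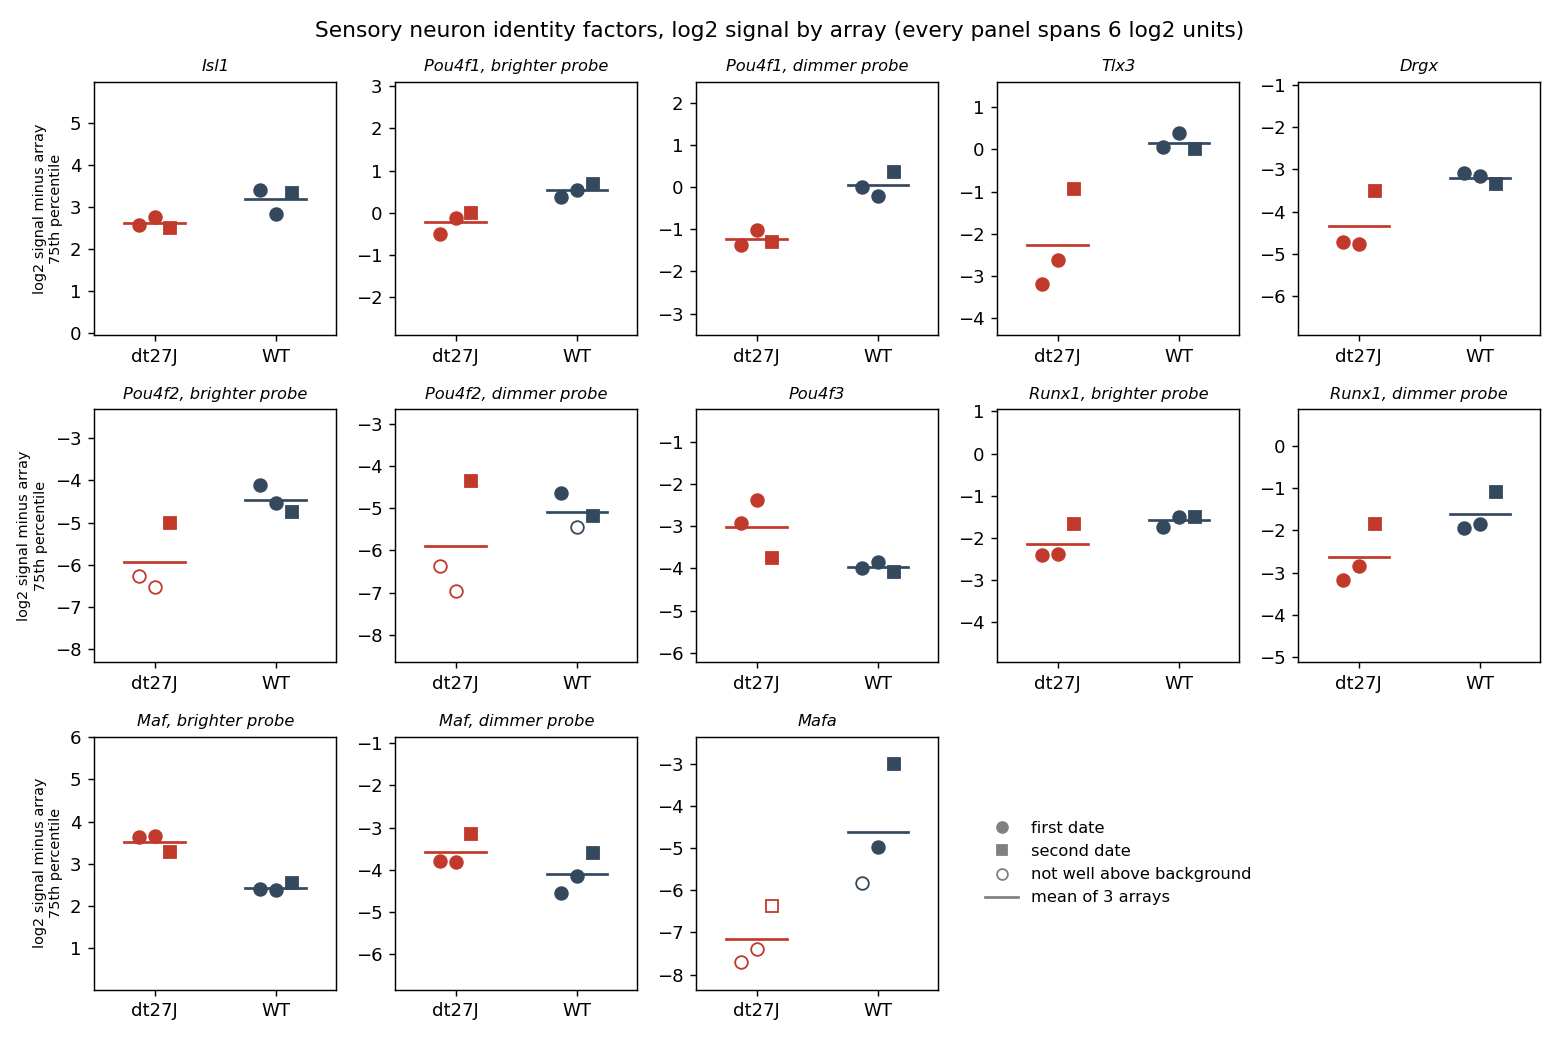
Log2 signal of the 13 probes on each array, minus the 75th percentile of the array (dt27J left, WT right; circles, first date; squares, second date; open symbols, not well above background; bars, mean of 3 arrays). The groups are apart for Isl1, both Pou4f1 probes, Tlx3, Drgx, the brighter Pou4f2 and Maf probes, Pou4f3 and Mafa.

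The subtype factors went both ways. Maf, a basic leucine zipper factor of low-threshold mechanoreceptors, rose on its brighter probe, which read 3.64, 3.65 and 3.27 in dt27J 1, 2 and 3, against 2.40, 2.37 and 2.53 in WT 1, 2 and 3. Every dt27J array lay above every WT array. The rise was 1.08 (SE 0.20, adjusted p = 0.0479, limma), or 2.12-fold (95% interval 1.52 to 2.97). The dimmer Maf probe read -3.80, -3.81 and -3.14 in dt27J ganglia, against -4.54, -4.14 and -3.61 in WT ganglia, with overlap, and its difference of 0.51 (SE 0.20) did not pass (adjusted p = 0.160). Markers of macrophages and blood cells, where Maf is also expressed, averaged 0.66, 0.47 and 0.03 on dt27J 1, 2 and 3 and -0.01, 0.15 and -0.14 on WT 1, 2 and 3 (12 of 15 tested). Their summed signal was 12.5 to 27.7 in dt27J and 11.4 to 13.9 in WT ganglia. Of these markers Aif1 rose by 1.01 (SE 0.19, adjusted p = 0.0483), and by 1.39 on its dimmer probe, while Ptprc and Ly6c2 stood at 0.65 and 0.88 (adjusted p = 0.0934 and 0.0975). Within the second date Aif1 stood at 0.95 and 1.36 on its probes and Maf at 0.74 on its brighter one. Ptprc and Ly6c2 stood at 0.41 and 0.15 there, and the median of the list was 0.21. The part of these cells in the rise of Maf was not tested.

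Mafa, which acts with Maf in the same mechanoreceptors, was not tested, since 2 of 3 WT arrays and 0 of 3 dt27J arrays read it well above background. Its signal was -7.70, -7.41 and -6.38 in dt27J 1, 2 and 3, against -5.84, -4.98 and -3.02 in WT 1, 2 and 3. Set against the lowest signal that counts as well above background on each dt27J array, Mafa had a bound of 2.14-fold lower in dt27J ganglia. The bound is not strict, since WT 1 entered it at a measured signal that was not well above background. This bound rests on WT 3, the brightest WT array, and was 1.24-fold without it. With every probe of the array fitted regardless of background, its adjusted p was 0.0933. The measured values of Mafa lay below WT and those of the brighter Maf probe above it, with no test for Mafa.

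Runx1, the Runt-domain factor of non-peptidergic nociceptors, was lower on both probes without passing. The dimmer probe read -3.18, -2.84 and -1.85 in dt27J 1, 2 and 3, against -1.93, -1.84 and -1.09 in WT 1, 2 and 3. Its dt27J array of the second date lay within the WT range, so the groups overlapped, although the difference of -0.999 (SE 0.21, adjusted p = 0.0531) was close to the threshold. The brighter probe read -2.42, -2.38 and -1.67 in dt27J ganglia, against -1.74, -1.50 and -1.50 in WT ganglia, with a difference of -0.58 (SE 0.22, adjusted p = 0.150). Both probes were higher on the second-date array than on the first-date arrays in dt27J ganglia. Relative to the sensory marker mean, the brighter probe stood at 0.12, -0.03 and 0.07 on dt27J 1, 2 and 3. On WT 1, 2 and 3 it stood at -0.17, 0.11 and 0.07. The dimmer probe stood between -0.60 and -0.06 on the dt27J arrays and between -0.32 and 0.52 on the WT arrays. The groups overlapped for both probes on that measure. Markers of macrophages and blood cells, in which Runx1 is expressed too, had a positive median of 0.44.

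The remaining POU factors were dim and stood on opposite sides of WT. Pou4f3, best known from hair cells of the inner ear, read -2.92, -2.38 and -3.74 in dt27J 1, 2 and 3, against -3.99, -3.84 and -4.08 in WT 1, 2 and 3. The dt27J arrays were all above the WT arrays, and the difference was 0.96 (SE 0.28, adjusted p = 0.0873). The brighter Pou4f2 probe, for the paralogue best known from retinal ganglion cells, read -6.27, -6.52 and -5.02 in dt27J ganglia, against -4.12, -4.55 and -4.74 in WT ganglia. Only dt27J 3 of the dt27J arrays read it well above background, as did the 3 WT arrays, so it was tested through its WT signal. Its measured difference of -1.47 (SE 0.39, adjusted p = 0.0744) rests in part on background and stood at -0.22 after normexp. The dimmer Pou4f2 probe was well above background on 2 WT arrays and 1 dt27J array and was not tested. It read -6.37, -6.97 and -4.34 in dt27J ganglia, against -4.64, -5.45 and -5.17 in WT ganglia, and the groups overlapped.

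Set side by side, general and subtype factors differed in direction more than in the number of calls. Of 5 tested probes of general factors 5 had a negative fold change and 2 were called, and of 6 tested probes of subtype factors 3 were negative, 3 positive and 1 called. Pou4f1, Runx1 and Maf enter these counts with 2 probes each. Over all tested probes 3.19% were called and 53.6% were negative. A negative direction was not particular to the general factors. Of the sensory neuron markers 14 of 15 were negative, with a median of -0.59, and of the other sensory lineage factors 22 of 29. By the brightest probe of each gene, the 4 general factors ran from -2.40 to -0.58 with a median of -0.94, and the subtype factors ran from -1.47 to 1.08, Mafa, which has only a bound, left aside. With Mafa at its bound or at its measured value the median of the 5 subtype factors was -0.58. This median was the Runx1 value and depended on which genes were counted. Over the 3 genes well above background on all arrays, Maf, Pou4f3 and Runx1, it was 0.96. That was the value of the dim Pou4f3 probe, which stood at 0.39 after normexp. Over all tested probes the median was -0.05. The members were not replicates and no test was made between these sets.

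**Figure D3:**
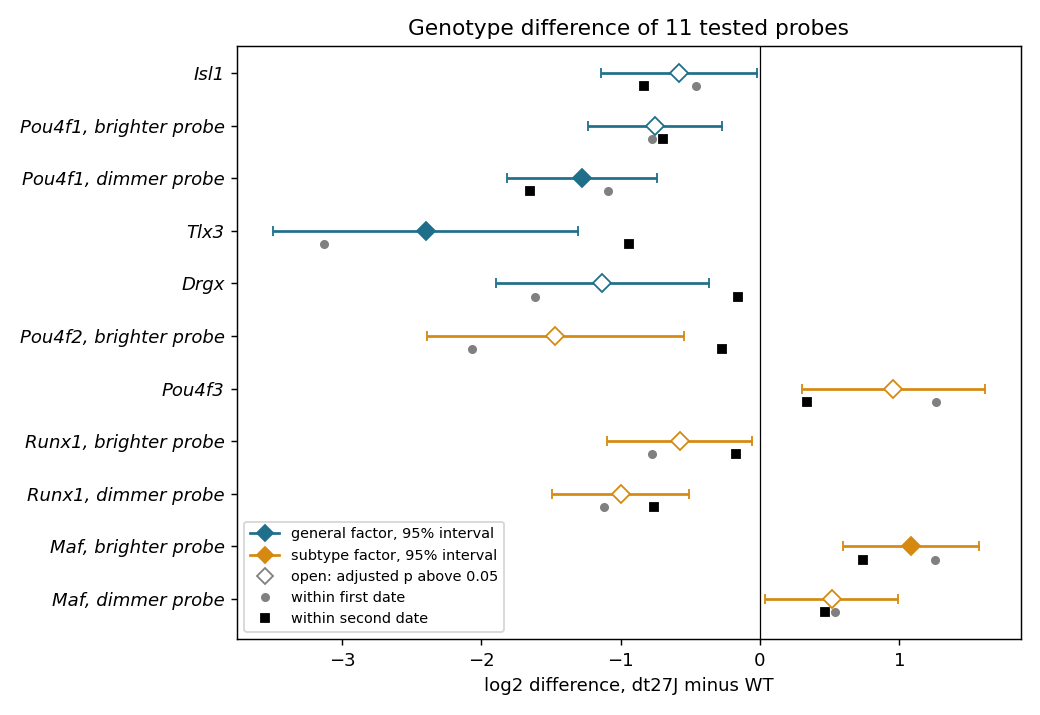
Difference in log2 signal, dt27J minus WT, for the 11 tested probes with 95% intervals of the moderated fit (filled, adjusted p under 0.05), and the difference within the first date (grey circles, 2 arrays each) and the second date (black squares, 1 array each). General factors all lie left of 0, and Maf and Pou4f3 lie right of it.

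The differences had the same sign within both dates on all 11 tested probes, against 56.8% of all tested probes, and 9 of the 11 were larger in size in the first date, against 49.3%. A small p in the fit over both dates favours equal signs, and all 11 had an unadjusted p under 0.05 (limma). The members were also chosen with earlier results of these data known. The equal signs are therefore no separate evidence that the dates agree. Tlx3 differed by -3.13 in the first date and by -0.94 in the second, Drgx by -1.62 and -0.16, and the brighter Pou4f2 probe by -2.06 and -0.27, where the first-date value is set against dt27J arrays not well above background for it. For these 3 probes the interaction of genotype and date had an unadjusted p of 0.00319, 0.00343 and 0.00423, and an adjusted p of 0.0691, 0.0695 and 0.0727 (limma). No member passed this test after adjustment, 0 of 11, while 0.831% of all tested probes did, and an unadjusted p under 0.05 was found for 3 of the 11 and for 27.5% of all. Isl1 and the dimmer Pou4f1 probe were the exceptions, with -0.46 and -1.09 in the first date and -0.83 and -1.65 in the second. Maf differed by 1.26 and 0.74 on its brighter probe. The second date compares 1 array with 1, and its dt27J array carried few sympathetic markers where its WT array carried many, the opposite of the first date.

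**Figure D4:**
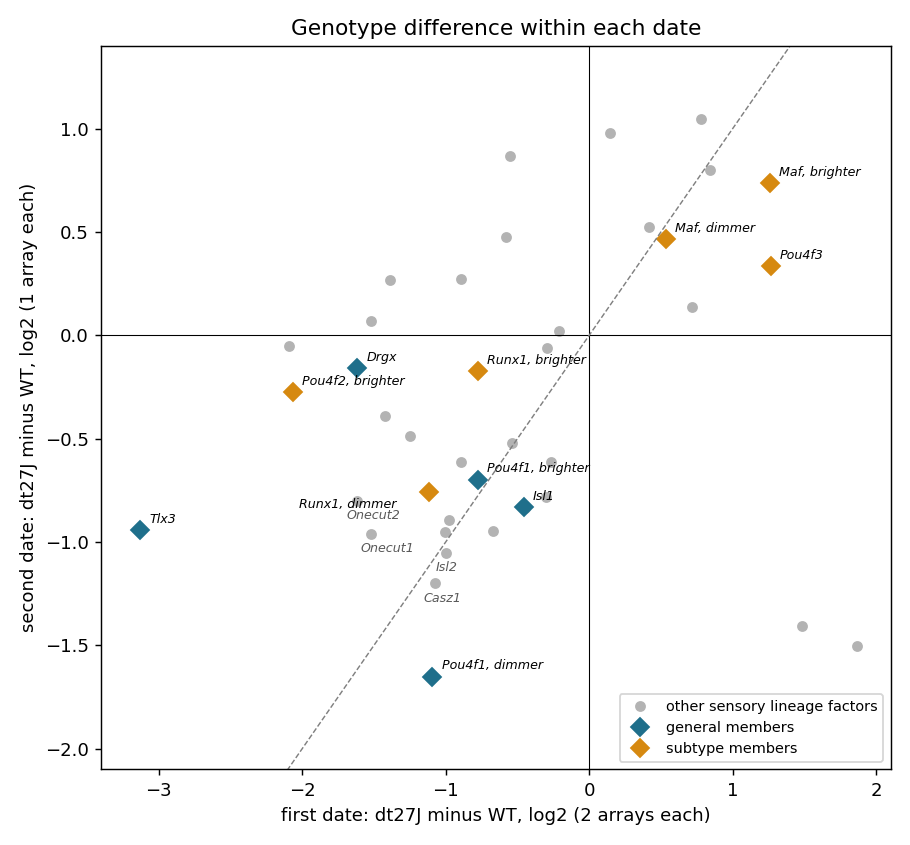
Difference in log2 signal, dt27J minus WT, within the second date (y axis) against the first date (x axis), for the 11 tested probes of identity factors and 29 other sensory lineage factors; the dashed line marks equal differences. Tlx3, Drgx and Pou4f2 lie far left of the line, Isl1 and the dimmer Pou4f1 probe below it.

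The 3 calls lay close to the threshold and depended on the arrays used. Without WT 1, WT 2, dt27J 1 or dt27J 2 the adjusted p was 0.248, 0.164, 0.188 and 0.110 for Tlx3, 0.248, 0.159, 0.188 and 0.0753 for the dimmer Pou4f1 probe, and 0.248, 0.169, 0.192 and 0.119 for the brighter Maf probe. Without either second-date array, which leaves the genotype difference of the first date, it was 0.00632, 0.0208 and 0.0117, and 9 of the 11 probes passed, 7 lower and 2 higher. In that comparison 6805 of 26248 probes passed, so the larger count was not particular to these factors. The sign of 10 probes held in 17 alternatives and that of the brighter Pou4f2 probe in the 16 in which it was fitted. These alternatives are not separate checks. Those that changed only the block or the filter leave the fitted difference unchanged by construction, so its sign could not change. Leaving out either second-date array gives the same difference as the first date alone.

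Other transcription factors of the sensory lineage mostly stood lower as well. Of 37 listed, 29 were tested by their brightest tested probe, 4 fell and 0 rose, against 1.52% and 1.35% of all symbols (2.87% in either direction). Their median difference was -0.53 (-0.58 and -0.49 within the 2 dates), and 22 were negative and 7 positive, against -0.03 and 52.4% negative over all symbols. Isl2, the paralogue of Isl1, was far above the 75th percentile and read 5.44, 5.53 and 5.77 in dt27J 1, 2 and 3, against 6.59, 6.38 and 6.83 in WT 1, 2 and 3. It fell by 1.02 (SE 0.19, adjusted p = 0.0473), by nearly the same amount in both dates (-0.998 and -1.05). Onecut1 and Onecut2, paired cut-homeodomain factors, fell by 1.33 and 1.35 (SE 0.24 and 0.26, adjusted p = 0.0472 and 0.0494), a second Onecut2 probe fell by 1.32 and the remaining one stood at -0.84 (adjusted p = 0.110). Casz1, a zinc finger factor, fell by 1.12 (SE 0.21, adjusted p = 0.0476).

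Partners and paralogues of the subtype factors did not pass. Runx3, the Runt factor of proprioceptors, stood at -0.38 and -0.56 on its probes (adjusted p = 0.283 and 0.119). Cbfb, the partner that Runx proteins need to bind DNA, stood at -0.23 and 0.57 (adjusted p = 0.652 and 0.110). Both Runx2 probes were well above background on no array.

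Genes placed downstream of these factors were read next. Of 24 nociceptor genes listed under Tlx3, Runx1, Prdm12 or Isl1, 18 were tested, 2 fell and 0 rose, and 15 were negative with a median of -0.38 (-0.63 and -0.12 within the 2 dates). Over all symbols 1.52% were called lower and 1.35% higher, and 52.4% were negative. Scn11a, the sodium channel gene of nociceptors, fell by 1.20 (SE 0.23, adjusted p = 0.0495). Met, the gene for the hepatocyte growth factor receptor, stood at 0.93 on its brightest probe (SE 0.19, adjusted p = 0.0527) and at -0.33 on another tested probe. The sensory neuron markers had a negative median of -0.59, and 0 of 15 passed in limma (5 at an unadjusted p under 0.05). The nearest were Prph (-1.45, adjusted p = 0.0593), Elavl4 (-1.08, adjusted p = 0.0616) and Avil (-1.41, adjusted p = 0.0702).

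Among 13 genes of the low-threshold mechanoreceptors in which Maf and Mafa act, 10 were tested, 1 fell and 0 rose, and 9 were negative with a median of -0.41, against 52.4% negative and 1.52% called lower over all symbols and 14 of 15 negative among the sensory neuron markers. Necab2, a calcium-binding protein gene, averaged 0.55 in dt27J and 2.09 in WT ganglia and fell by 1.54 (SE 0.22, adjusted p = 0.0413). Kcnh5, a potassium channel gene, stood at -0.83 and Calb2, the calretinin gene, at -0.88 on its brightest probe (adjusted p = 0.0761 and 0.185), with another tested Calb2 probe at -1.62 (adjusted p = 0.128).

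The dorsal horn, where general factors are also used, was followed by 16 marker genes of spinal neurons, of which 10 were tested. Gbx1, a homeodomain factor of the dorsal horn, fell by 1.30 (SE 0.23, adjusted p = 0.0472) and was as bright on WT 3 (-1.68) as on WT 1 and WT 2 (-2.21 and -2.27). Pax2 stood at -1.08 and Gad1 at -2.36 (adjusted p = 0.0543 and 0.0957). Within the first and the second date Gad1 stood at -3.63 and 0.17, and Pax2 at -0.99 and -1.25. Zic1 was the brightest, at 2.34 on average in dt27J and 2.23 in WT ganglia. The list averaged -0.58, -0.35 and -1.41 on dt27J 1, 2 and 3 and 0.21, 0.22 and -0.43 on WT 1, 2 and 3, relative to its WT mean, with a summed signal of 5.43 to 8.32 in dt27J and 6.70 to 12.0 in WT ganglia. Of the spinal cord glia markers Gpr17 fell by 3.70 (SE 0.61, adjusted p = 0.0454), Aqp4 and Mobp stood at -3.74 and -2.34, and Cspg5, the brightest, at -0.97.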

How the data were processed

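The scanner files were produced by Agilent Feature Extraction 10.5.1.1, per the file headers. Their deposited processed signal is an intensity, background-subtracted and detrended within the array and not normalized between arrays, and the deposited median spot and background signals are raw intensities. The authors also deposited a table of log2 values, in which the median of each probe over the arrays is 0 to within 1e-06 and column medians run from -0.004 to 0.005. Its values rise with the centred scanner values (slopes of 0.709 to 0.758 over tested probes), so direction and centring are known, and its normalization is not stated in the sources at hand.

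Values are log2 processed signals, less the log2 75th percentile of that array (a signal of 369.5 to 580). Control and outlier spots were left out and repeated spots averaged, which left 41086 of 41174 probes. A probe was tested if well above background on all 3 arrays of a genotype (26248 probes), and no probe was saturated. The share of probes well above background ran from 63.2% to 71.5%, and the number of arrays limits the precision. Date and slide coincide. Probes were named through RefSeq (GRCm38.p6, names only; 24844 matched).

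Differences were fitted with limma 3.58.1 in R 4.3.3 on all tested probes, with genotype and date as terms. Benjamini-Hochberg adjustment was used at 0.05 (3 residual and 3.74 prior degrees of freedom). The fit was also run on simulated data with planted differences. Errors there were independent between probes and arrays, while tissue markers here shifted together, so that run cannot vouch for the p-values. Each array is taken as a separate animal, as the design text gives 3 animals per genotype. Members and gene lists were chosen with earlier results of these data known. All member probes are named, and in each list the genes past the threshold, the 3 with the smallest p and, for other tissues, the brightest. Some genes that this rule names are not reported here. Alternatives concerned the block, scaling, background correction (normexp, offset 50, with and without local backgrounds over 5 times the array median replaced), the authors' values, filters, array weights, the first date alone and each array left out.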

Additional observations from a re-analysis of the deposited data

Results flagged for a closer look

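The genotype difference differed between the dates for 218 of 26248 tested probes by the interaction term (limma, adjusted p under 0.05), and no identity factor was among them. On the dimmer Pou4f2 probe the difference was -1.63 in the first date and 0.83 in the second, so that the arrays of the 2 dates moved in opposite directions. That probe was well above background on 1 dt27J array and 2 WT arrays, and with all probes fitted regardless of background its interaction had an adjusted p of 0.138.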

How the results depend on the processing

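The direction of 10 tested member probes held under 17 alternatives, and that of the brighter Pou4f2 probe under the 16 that fitted it. Changes of block or filter alone could not alter it, and leaving out either second-date array repeats the first date alone. Member calls numbered 3 and calls over all probes 838; these became 0 and 14 without the date block, 1 and 358 after normexp, 0 and 0 without a filter on dim probes (12 and 8485 at an unadjusted p under 0.05), 11 and 12199 with array weights, whose estimation stopped before it converged, and 9 and 6805 for the first date alone. With high local backgrounds replaced, normexp gave 1449 calls over all probes. Leaving out 1 array gave 0 to 9 member calls and 0 to 6805 calls in all, general medians of -1.20 to -0.82, subtype medians of -0.78 to -0.45 and differences between them of -0.45 to -0.29; counts of 0 over all probes stood beside 4990 (without WT 2) and 4475 (without dt27J 1) at an unadjusted p under 0.05. After normexp the general and subtype medians were -0.45 and -0.14, and with the authors' deposited values -0.61 and -0.38. With probes well above background on all arrays alone, the subtype median was 0.96 and the difference between the medians -1.90, since fewer genes remain. The interaction count was 405 without the filter. Whether the replicate numbers pair the animals was not settled. Deviations of same-numbered arrays from their genotype means correlated at 0.22, -0.15 and 0.06. These deviations also carry the differences of date and tissue, so they cannot decide it. With the replicate number as a block, 0 members and 2 probes in all passed (8 and 5711 at an unadjusted p under 0.05). After median scaling Tlx3 had an adjusted p of 0.0510. Dim probes were limited by signal over background: after normexp Drgx stood at -0.37 and Pou4f3 at 0.39.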

Other observations

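Genes of other cell types and tissues were read beside the identity factors. For the counts below, 1.35% of all symbols were called higher and 1.52% lower by their brightest tested probe, and 52.4% were negative. An unadjusted p under 0.05 (limma) was found for 27.7% of all tested probes. Of 14 satellite glia and Schwann lineage genes 13 were tested and 3 rose, Egr2, the regulator of myelination, by 1.999 (SE 0.31, adjusted p = 0.0442), Ednrb by 1.32 (adjusted p = 0.0442) and Cdh19, tested through its dt27J signal, by 1.85 (adjusted p = 0.0497), with a list median of -0.01, Pmp22, the brightest, at -0.08, and a second Ednrb probe at 0.32. Of 9 endothelial genes Tek, an angiopoietin receptor, rose by 1.63 (SE 0.29, adjusted p = 0.0472), Cdh5, the brightest, and Pecam1 stood at 1.02 and 1.19 (adjusted p = 0.0629 and 0.0679), and all 9 were positive (median 0.77). Of 11 skeletal muscle genes 6 rose, Myog by 1.72, Tnnt3 by 1.84, Myh1 by 2.40, Tcap by 2.43, Ckmt2 by 2.88 and Mb by 3.26, with a second tested Myh1 probe at -0.17 (adjusted p = 0.598) and Tnnc2, the brightest gene, at 1.66, and this list averaged 1.20, 2.21 and 2.15 on dt27J 1, 2 and 3 and -0.59, -0.58 and 1.16 on WT 1, 2 and 3. Of the 9 sympathetic genes tested 0 passed in limma, 1 at an unadjusted p under 0.05 (Hand2, Gata2 and Gata3 stood at 2.49, 1.65 and 2.26), and 0 passed of 7 erythroid, 7 cartilage and bone and 9 proprioceptor genes (0, 4 and 2 at an unadjusted p under 0.05), whose medians were 0.22, -0.21 and -0.26. Among these Hbb-bt, Alas2 and Klf1 stood at 0.60, 0.31 and -0.20, Col2a1, Acan, Bglap and Ibsp at 1.08, 0.96, -0.84 and -0.78, and Cdh13, Ntrk3 and Esrrg at -0.82, 0.60 and -0.44.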
